A study of Mus musculus with 7 samples.

Results

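The 10 genes considered here are chemokines, 1 chemokine receptor and the CSF1 receptor ligands, chosen by name: Cx3cl1, Cxcl12, Cxcr4, Ccl2, Ccl3, Ccl4, Ccl12, Ccl5, Csf1 and Il34. Ensembl identifiers were matched to mouse symbols on GRCm38, and 9 of the 10 were among the 17422 genes in the files; Cxcl12 is not analysed here. The question was which of them were present in cultured progenitor cells and which varied with the microglial transcripts of the gliomas. RNA sequencing covered 3 gliomas with the PDGF-B label, 3 with the EGFRvIII label and 1 progenitor culture. Per the labels, the PDGF-B gliomas arose from E14 Balb/c neural precursors, wild type at the Ink/Arf locus, that carried retroviral vectors for PDGF-B and DsRed. The EGFRvIII gliomas arose from Ink/Arf -/- Balb/c precursors with vectors for EGFRvIII and DsRed, so oncogene and genotype differ together and cannot be told apart. The precursors had been grown with bFGF and EGF and were inoculated intracranially in adult BALB/c hosts; the tumours were taken at the first neurological symptoms and sorted for the red fluorescent protein DsRed. The culture was 1 preparation of E14 progenitors transduced with PDGF-b and sorted for DsRed, with no graft named; its genotype is not stated beyond the general protocol, which gives PDGF-B to Balb/c cells without the Ink/Arf deletion. Microglia of the host do not carry the vectors, so the DsRed sort is a gate that would remove them. Microglia and macrophage markers nevertheless had reads in every sorted glioma, at the levels given below.

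Groups are named below by their labels, although the driver genes go against them. Egfr had 4552 ± 833 CPM (reads of a gene scaled to a common library size; SD, n = 3) in gliomas labelled PDGF-B, against 31.2 ± 8.63 CPM (n = 3) in gliomas labelled EGFRvIII, and 282 CPM in the culture. Pdgfb had 3.27 ± 1.49 CPM in gliomas labelled PDGF-B, against 316 ± 60.9 CPM in gliomas labelled EGFRvIII and 245 CPM in the culture. Cdkn2a, a gene of the Ink/Arf locus, averaged 3.82 ± 1.05 CPM in gliomas labelled PDGF-B and 19.98 ± 7.84 CPM in gliomas labelled EGFRvIII. All 3 genes differed between the glioma groups (limma adjusted p = 0.000187, 0.000838 and 0.0318), in the direction opposite to the labels. Every direction between the glioma groups given below would turn round if the labels were exchanged. Each comparison of a glioma group with the culture would then carry the other label. Depth was 32513728 to 39062528 recovered reads per library. Of 20 microglia and macrophage markers, all were measured, and their summed level was 634 to 1713 CPM in gliomas labelled PDGF-B, 6041 to 16539 CPM in gliomas labelled EGFRvIII, and 111 CPM in the culture. In the culture 6 of the 20 were at 0 reads and 16 were under 1 CPM; those above it included Sall1 at 86.1 CPM, Olfml3 at 7.47 CPM and P2ry12 at 1.53 CPM. Between the glioma groups 18 of the 20 were called lower in those labelled PDGF-B (limma adjusted p under 0.05), against 2.63% of all genes. In bulk libraries, fewer cells of a type and less RNA per cell cannot be told apart.

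Chemokines are small secreted proteins that steer cells bearing matching G-protein-coupled receptors. In the brain, Cx3cl1 (fractalkine) is made mainly by neurons as a membrane-bound ligand that proteases release, and its receptor Cx3cr1 is carried by microglia. The CC chemokines Ccl3, Ccl4 and Ccl5 attract leukocytes, and Ccl2 and Ccl12 attract monocytes through Ccr2; activated microglia and macrophages are a known source of several of them. Csf1 and Il34 are the ligands of Csf1r, the receptor on which microglia depend for survival. Cxcr4 is the receptor of Cxcl12 and acts in the migration of neural progenitors and leukocytes, and has been studied in glioma.

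The 9 genes fell along a range between genes well detected in the culture and genes at or near 0 reads in it. In the culture 5 of 9 had at least 1 CPM (Cx3cl1, Csf1, Cxcr4, Ccl2 and Il34), against 80.9% of all genes. The other 4, Ccl3, Ccl4, Ccl12 and Ccl5, had at most 1 read there, against 3.44% of all genes. Between the glioma groups, only Ccl3 passed the test, and it was lower in gliomas labelled PDGF-B. Over all genes the calls came to 3.35%, with 2.63% in the direction of Ccl3 and 0.717% in the other. Ccl2, Ccl12, Ccl3, Ccl4 and Cxcr4, 5 of the 9, did not overlap between the glioma groups, with every glioma labelled PDGF-B below every glioma labelled EGFRvIII; 12.6% of all genes had that pattern. The median log2 fold change of the 9, gliomas labelled PDGF-B over those labelled EGFRvIII, was -2.05, against 0.00 for all genes.

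**Figure D1:**
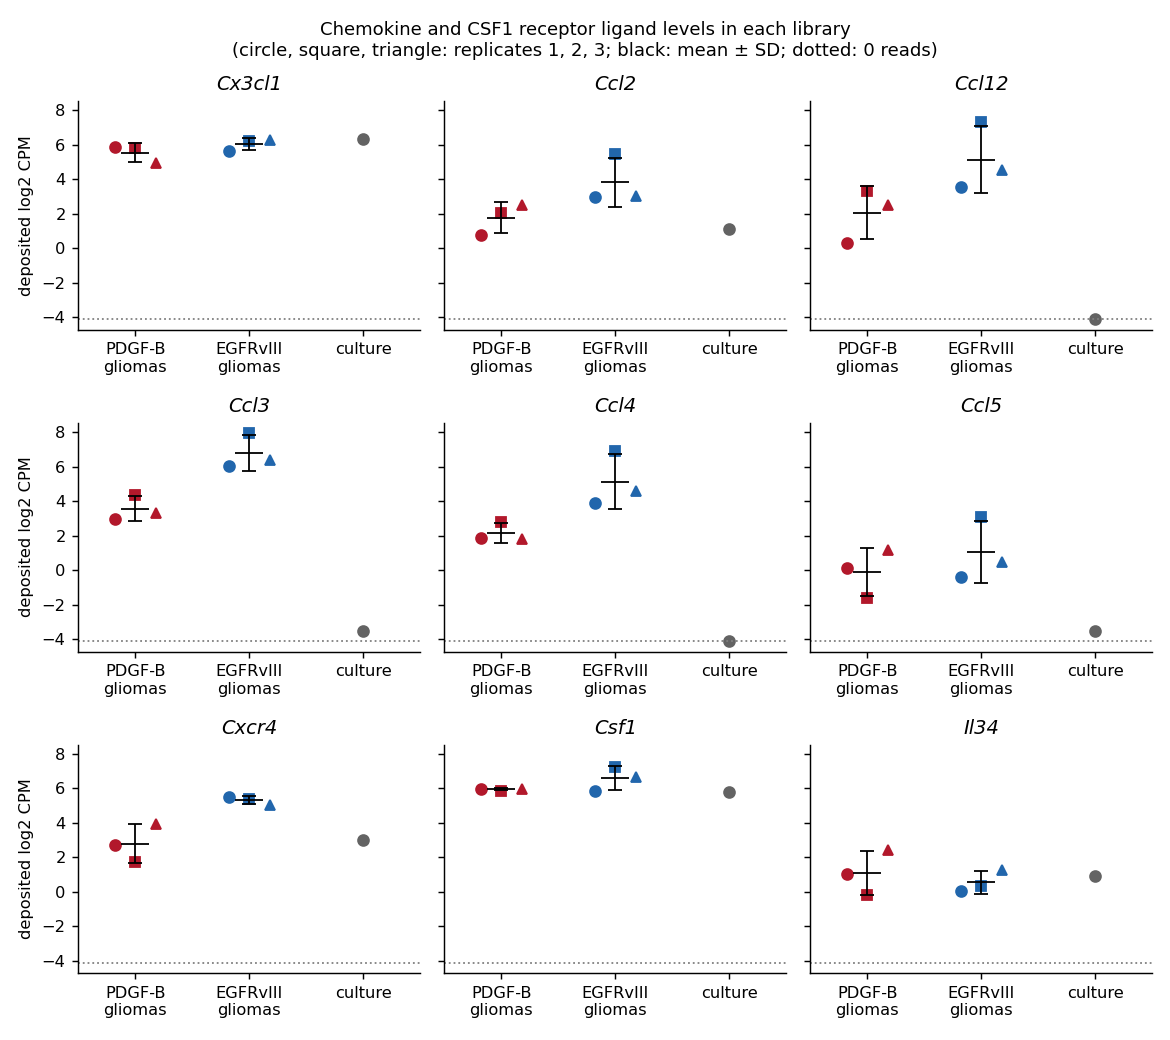
Deposited log2 CPM of each gene in every library, with gliomas of the PDGF-B label on the left, those of the EGFRvIII label in the middle and the culture on the right; points are libraries, black bars are mean ± SD over 3 gliomas, and the dotted line marks 0 reads. Cx3cl1 and Csf1 lie well above the dotted line in every library, whereas Ccl4 and Ccl12 lie on it in the culture and highest in EGFRvIII replicate 2.

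The sequences around the transcription start are shown for 5 genes, because Ccl3 and Ccl12 were near 0 reads in the culture while Csf1, Cx3cl1 and Cxcr4 were detected there. RefSeq windows of GRCm38.p6, 250 bases before to 50 bases after the start, were matched for 6 of the 10 genes. Capitals mark matches, on either strand, to 3 short motifs, and the other letters are lower case. The motif TATAAA is known from the TATA box near many start sites. The motif GGGCGG is known as the GC box and is bound by Sp1. The motif GAGGAA is found within many sites of PU.1, a factor of myeloid cells. The windows are Ccl3 at chr11:83649329-83649628 on the minus strand, Ccl12 at chr11:82101595-82101894 on the plus strand, Cxcr4 at chr1:128592250-128592549 on the minus strand, Csf1 at chr3:107760420-107760719 on the minus strand and Cx3cl1 at chr8:94771930-94772229 on the plus strand.
Ccl3: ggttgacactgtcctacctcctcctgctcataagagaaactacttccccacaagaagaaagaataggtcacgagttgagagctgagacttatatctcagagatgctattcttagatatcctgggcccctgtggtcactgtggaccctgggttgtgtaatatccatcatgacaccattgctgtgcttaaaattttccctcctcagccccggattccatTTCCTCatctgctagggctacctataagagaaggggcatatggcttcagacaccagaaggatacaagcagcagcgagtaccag
Ccl12: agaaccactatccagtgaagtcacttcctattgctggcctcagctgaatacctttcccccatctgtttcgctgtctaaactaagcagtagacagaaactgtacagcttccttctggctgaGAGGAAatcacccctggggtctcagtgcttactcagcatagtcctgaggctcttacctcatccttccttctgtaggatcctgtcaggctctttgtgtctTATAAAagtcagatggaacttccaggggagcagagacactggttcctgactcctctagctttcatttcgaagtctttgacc
Cxcr4: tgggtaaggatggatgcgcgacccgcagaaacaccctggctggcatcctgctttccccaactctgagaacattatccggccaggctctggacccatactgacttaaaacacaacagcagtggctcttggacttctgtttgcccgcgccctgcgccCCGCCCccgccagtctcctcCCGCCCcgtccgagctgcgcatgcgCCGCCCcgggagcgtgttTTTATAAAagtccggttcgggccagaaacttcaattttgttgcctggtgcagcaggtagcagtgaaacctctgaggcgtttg
Csf1: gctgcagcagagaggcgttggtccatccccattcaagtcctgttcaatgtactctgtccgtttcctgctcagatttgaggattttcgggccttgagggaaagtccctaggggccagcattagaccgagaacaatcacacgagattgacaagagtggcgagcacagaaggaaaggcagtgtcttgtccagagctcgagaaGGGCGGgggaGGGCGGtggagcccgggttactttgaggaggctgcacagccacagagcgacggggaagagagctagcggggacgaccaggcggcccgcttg
Cx3cl1: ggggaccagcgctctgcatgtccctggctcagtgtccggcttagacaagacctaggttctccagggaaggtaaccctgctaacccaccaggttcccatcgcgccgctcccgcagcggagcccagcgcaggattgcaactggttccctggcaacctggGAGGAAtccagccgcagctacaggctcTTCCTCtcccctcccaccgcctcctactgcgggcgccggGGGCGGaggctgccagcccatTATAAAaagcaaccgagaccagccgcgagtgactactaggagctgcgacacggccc

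The 5 windows differed in CpG content. Ccl3 held 3 CpG and Ccl12 held 2, both at 48% GC, whereas Csf1 held 16, Cx3cl1 19 and Cxcr4 20 CpG at 58.7%, 64.7% and 59.3% GC. The median over all 32851 windows was 7 CpG, and 23.3% of them had fewer CpG than Ccl3 and 14.1% fewer than Ccl12, against 73.5% for Cxcr4, 67.0% for Csf1 and 71.9% for Cx3cl1. GGGCGG was found 3 times in Cxcr4, 2 times in Csf1, 1 time in Cx3cl1 and not in Ccl3 or Ccl12; 35.7% of all windows hold it. TATAAA occurred in Ccl12, Cx3cl1 and, as 2 overlapping copies marked as 1 run, in Cxcr4, and occurs in 13.6% of all windows. GAGGAA occurred in Ccl3, in Ccl12 and, 2 times, in Cx3cl1, and in none of the other windows shown; it occurs in 28.3% of all windows. A match describes these letters and shows no binding.

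Cx3cl1 (ENSMUSG00000031778, chromosome 8, 94772009 to 94782427, plus strand) had 58.1, 56.8 and 30.2 CPM in gliomas labelled PDGF-B, 50.4, 74.6 and 76.5 CPM in gliomas labelled EGFRvIII, and 78.7 CPM in the culture. The groups overlapped, and the culture was the highest library. The log2 fold change was -0.51 ± 0.31 (SE) between gliomas labelled PDGF-B and EGFRvIII (95% interval -1.23 to 0.21, limma adjusted p = 0.448). Against the culture it was -0.76 ± 0.43 in gliomas labelled PDGF-B (adjusted p = 0.291) and -0.25 ± 0.43 in gliomas labelled EGFRvIII (adjusted p = 0.782). Its receptor Cx3cr1 had 39.2, 58.0 and 99.2 CPM in gliomas labelled PDGF-B, 519.95, 589 and 559.75 CPM in gliomas labelled EGFRvIII, and 0.14 CPM in the culture. Cx3cr1 was lower in gliomas labelled PDGF-B than in those labelled EGFRvIII (log2 fold change -3.19 ± 0.33, adjusted p = 0.0185). Per kilobase of exon, the level of Cx3cl1 was 1.70, 1.12 and 0.349 times that of Cx3cr1 in gliomas labelled PDGF-B and 0.111, 0.145 and 0.157 times in gliomas labelled EGFRvIII. In the culture it was 623 times that of Cx3cr1, so the ligand exceeded its receptor in the culture and in 2 of 3 gliomas labelled PDGF-B. Of the proteases that release chemokines, Adam10 had 182 to 207 CPM in gliomas labelled PDGF-B, 207 to 286 CPM in gliomas labelled EGFRvIII and 247 CPM in the culture. Of 3 such proteases measured of 5 listed, none was called between the glioma groups or between gliomas labelled PDGF-B and the culture; Mmp2 was higher in gliomas labelled EGFRvIII than in the culture (5.82 ± 1.11, adjusted p = 0.0187). At an unadjusted p under 0.05, 1 of 3 passed in each comparison in which none was called. Of all 17422 genes, 2906 did so between the glioma groups and 4733 between gliomas labelled PDGF-B and the culture.

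Csf1 (ENSMUSG00000014599, chromosome 3, 107741048 to 107760469, minus strand) was the most even of the 9 genes across gliomas labelled PDGF-B, at 62.8, 58.7 and 63.5 CPM. It had 57.2, 151 and 102.5 CPM in gliomas labelled EGFRvIII and 56.0 CPM in the culture. The glioma groups overlapped through EGFRvIII replicate 1, and the log2 fold change of gliomas labelled PDGF-B over EGFRvIII was -0.64 ± 0.33 (95% interval -1.42 to 0.14, limma adjusted p = 0.385). Against the culture it was 0.14 ± 0.47 in gliomas labelled PDGF-B (adjusted p = 0.874) and 0.78 ± 0.47 in gliomas labelled EGFRvIII (adjusted p = 0.376). Il34 (ENSMUSG00000031750, chromosome 8, 110741829 to 110805924, minus strand), the second ligand of Csf1r, had 2.01, 0.84 and 5.24 CPM in gliomas labelled PDGF-B. It had 0.98, 1.20 and 2.40 CPM in gliomas labelled EGFRvIII and 1.88 CPM in the culture, and all groups overlapped. The log2 fold change of Il34 between the glioma groups was 0.54 ± 0.69 (95% interval -1.08 to 2.16, adjusted p = 0.705). It turned to -0.11 without PDGF-B replicate 3. Against the culture the log2 fold change of Il34 was 0.15 ± 0.98 in gliomas labelled PDGF-B (adjusted p = 0.938) and -0.40 ± 0.98 in gliomas labelled EGFRvIII (adjusted p = 0.856); the first turned to -0.50 without the same library. Exons of Il34 overlap those of the antisense genes Gm15894 and Gm15895 by 22 and 75 bases, and no source used here says whether counting used strand, so its reads may be shared.

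Per kilobase of exon, Csf1 exceeded Il34 in all 7 libraries, by 11.6, 25.8 and 4.50 times in gliomas labelled PDGF-B, 21.7, 46.9 and 15.9 times in gliomas labelled EGFRvIII, and 11.1 times in the culture. Their receptor Csf1r had 57.4, 85.1 and 175 CPM in gliomas labelled PDGF-B, 615, 1384 and 951 CPM in gliomas labelled EGFRvIII, and 0.43 CPM in the culture. Csf1r was lower in gliomas labelled PDGF-B than in those labelled EGFRvIII (log2 fold change -3.29 ± 0.46, limma adjusted p = 0.0254). The level of Csf1 per kilobase was 1.20, 0.754 and 0.396 times that of Csf1r in gliomas labelled PDGF-B, 0.102, 0.1195 and 0.118 times in gliomas labelled EGFRvIII, and 141 times in the culture. The glioma groups did not overlap in this ratio or in Csf1r, and they overlapped in Csf1. Of 8 listed colony-stimulating factor receptors, cytokines and Il34 binding partners, 6 were measured. Of them 4 were lower in gliomas labelled PDGF-B than in those labelled EGFRvIII (Csf1r, Csf2ra, Csf2rb and Csf3r), against 2.63% of all genes. In each glioma group 4 were higher than in the culture. The shares of all genes were 7.73% in gliomas labelled PDGF-B and 8.2% in gliomas labelled EGFRvIII. Csf3r, the receptor of granulocyte colony-stimulating factor, had a log2 fold change of -2.98 ± 0.42 between the glioma groups (limma adjusted p = 0.0254). Ptprz1, a phosphatase that binds Il34, had 2837 to 5638 CPM in gliomas labelled PDGF-B, 3044 to 4457 CPM in gliomas labelled EGFRvIII and 3071 CPM in the culture, and passed in no comparison.

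**Figure D2:**
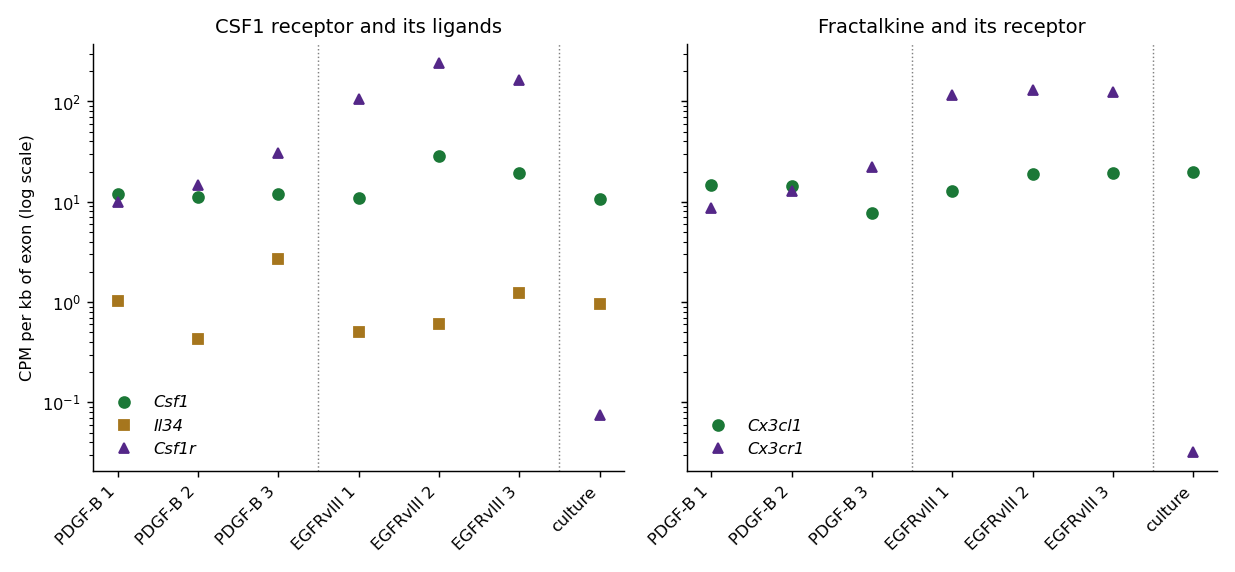
Level per kilobase of exon (CPM per kb, log axis) of Csf1, Il34 and Csf1r (left panel) and of Cx3cl1 and Cx3cr1 (right panel); points are libraries, PDGF-B gliomas first, then EGFRvIII gliomas, then the culture. Csf1 stays between 10.6 and 28.6 CPM per kb in every library while Csf1r spans 0.0752 to 240 CPM per kb.

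Ccl3 (ENSMUSG00000000982, chromosome 11, 83647844 to 83649355, minus strand) had 7.69, 20.3 and 9.94 CPM in gliomas labelled PDGF-B, 64.2, 245 and 83.8 CPM in gliomas labelled EGFRvIII, and 1 read, 0.029 CPM, in the culture. Every glioma labelled PDGF-B lay below every glioma labelled EGFRvIII, and both groups lay far above the culture. The log2 fold change was -3.24 ± 0.56 between gliomas labelled PDGF-B and EGFRvIII (limma adjusted p = 0.0323), and the means were 12.7 ± 6.74 CPM and 131 ± 99.3 CPM. The call ended without any 1 of 5 libraries (PDGF-B replicate 1 or 2, or EGFRvIII replicate 1, 2 or 3; adjusted p of 0.0712 to 0.111), and held without PDGF-B replicate 3 (0.0362). Against the culture Ccl3 was higher in gliomas labelled PDGF-B by 7.07 ± 0.80 on the log2 scale (adjusted p = 0.00359), and higher in gliomas labelled EGFRvIII by 10.31 ± 0.80 (adjusted p = 0.000640). In CPM the ratio to the culture was 437 (counting interval 78.5 to 17269) for gliomas labelled PDGF-B and 4528 (813 to 178840) for gliomas labelled EGFRvIII; the intervals cover counting error of the 1 culture read only.

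Ccl4 (ENSMUSG00000018930, chromosome 11, 83662584 to 83664683, plus strand), a CC chemokine whose gene lies near Ccl3, had 3.52, 6.92 and 3.39 CPM in gliomas labelled PDGF-B, 14.5, 120.6 and 24.1 CPM in gliomas labelled EGFRvIII, and 0 reads in the culture. The glioma groups did not overlap. The log2 fold change of gliomas labelled PDGF-B over EGFRvIII was -2.98 ± 0.75 (95% interval -4.74 to -1.22, limma adjusted p = 0.0889), which did not pass; it was -2.09 without EGFRvIII replicate 2 and -3.61 without EGFRvIII replicate 1. Ccl4 was higher than in the culture in gliomas labelled PDGF-B (6.26 ± 1.08, adjusted p = 0.0144), at least 53.1-fold in CPM against a floor of 3 reads in the culture. It was higher in gliomas labelled EGFRvIII (9.24 ± 1.08, adjusted p = 0.00254), at least 611-fold. Ccl12 (ENSMUSG00000035352, chromosome 11, 82101845 to 82103400, plus strand) varied most within a group, at 1.19, 9.73 and 5.71 CPM in gliomas labelled PDGF-B and 11.5, 159.8 and 23.2 CPM in gliomas labelled EGFRvIII; it had 0 reads in the culture. The glioma groups did not overlap, and the log2 fold change was -3.08 ± 1.09 (95% interval -5.63 to -0.54, adjusted p = 0.210). It was -1.99 without EGFRvIII replicate 2, -2.22 without PDGF-B replicate 1 and -3.88 without EGFRvIII replicate 1. Ccl12 was higher than in the culture in gliomas labelled EGFRvIII (9.25 ± 1.54, adjusted p = 0.0108), at least 747-fold. In gliomas labelled PDGF-B its log2 difference from the culture was 6.16 ± 1.54 (adjusted p = 0.0501), just short of the threshold, and its mean was at least 63.9-fold the culture floor.

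Ccl2 (ENSMUSG00000035385, chromosome 11, 82035571 to 82037453, plus strand), a monocyte attractant encoded near Ccl12, differed from Ccl3, Ccl4 and Ccl12 in being detected in the culture, at 2.11 CPM. It had 1.63, 4.09 and 5.55 CPM in gliomas labelled PDGF-B and 7.63, 43.8 and 8.18 CPM in gliomas labelled EGFRvIII, with no overlap. The log2 fold change was -2.05 ± 0.76 between gliomas labelled PDGF-B and EGFRvIII (95% interval -3.83 to -0.27, limma adjusted p = 0.232), and it was -1.23 without EGFRvIII replicate 2. Against the culture it was 0.65 ± 1.07 in gliomas labelled PDGF-B (adjusted p = 0.733) and 2.69 ± 1.07 in gliomas labelled EGFRvIII (adjusted p = 0.180). Ccl5 (ENSMUSG00000035042, chromosome 11, 83525778 to 83530518, minus strand), a T-cell and macrophage chemokine, had the lowest mean in gliomas labelled EGFRvIII among Ccl2, Ccl3, Ccl4, Ccl5 and Ccl12. It had 1.02, 0.27 and 2.16 CPM in gliomas labelled PDGF-B, 0.69, 8.43 and 1.34 CPM in gliomas labelled EGFRvIII, and 1 read in the culture. The glioma groups overlapped (log2 fold change -1.16 ± 1.03, 95% interval -3.59 to 1.26, adjusted p = 0.596). The value rested on single libraries: it was -0.14 without EGFRvIII replicate 2, -0.42 without PDGF-B replicate 2 and -1.90 without EGFRvIII replicate 1. Against the culture the log2 fold change of Ccl5 was 3.41 ± 1.47 in gliomas labelled PDGF-B (adjusted p = 0.187) and 4.58 ± 1.47 in gliomas labelled EGFRvIII (adjusted p = 0.105).

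Cxcr4 (ENSMUSG00000045382, chromosome 1, 128588199 to 128592293, minus strand) had 6.56, 3.24 and 15.5 CPM in gliomas labelled PDGF-B, 45.8, 41.4 and 33.2 CPM in gliomas labelled EGFRvIII, and 8.12 CPM in the culture. The 3 gliomas labelled EGFRvIII lay above all other libraries, while the gliomas labelled PDGF-B lay on both sides of the culture. The log2 fold change was -2.51 ± 0.52 between gliomas labelled PDGF-B and EGFRvIII (95% interval -3.74 to -1.29), with a limma adjusted p of 0.0510, just over the threshold; without PDGF-B replicate 3 it was -3.09 (adjusted p = 0.00411). Against the culture the log2 fold change was -0.23 ± 0.74 in gliomas labelled PDGF-B (adjusted p = 0.868) and 2.29 ± 0.74 in gliomas labelled EGFRvIII (adjusted p = 0.107). Without PDGF-B replicate 2 the first turned to 0.31. The last passed when PDGF-B replicate 2 (adjusted p = 0.0374) or PDGF-B replicate 3 (0.0220) was left out, which changes the spread estimate and not the 2 groups compared.

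Across the 9 genes, 2 were higher in gliomas labelled PDGF-B than in the culture (Ccl3 and Ccl4), and none was lower; the calls over all genes came to 9.45%, with 7.73% on the higher side and 1.73% on the lower. In gliomas labelled EGFRvIII 3 were higher (Ccl3, Ccl4 and Ccl12) and none was lower; the calls over all genes came to 9.55%, with 8.2% on the higher side and 1.34% on the lower. The median log2 fold change of the 9 over the culture was 0.65 in gliomas labelled PDGF-B and 2.69 in gliomas labelled EGFRvIII, against 0.04 and 0.01 over all genes. Both comparisons share the 1 culture; it is unreplicated, and its spread was taken to equal that of the gliomas. With weights from limma's voom on the recovered reads none of these calls stood (adjusted p of 0.188 for Ccl3 and 0.289 for Ccl4 in gliomas labelled PDGF-B, and 0.103 for Ccl3, 0.192 for Ccl4 and 0.304 for Ccl12 in gliomas labelled EGFRvIII).

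**Figure D3:**
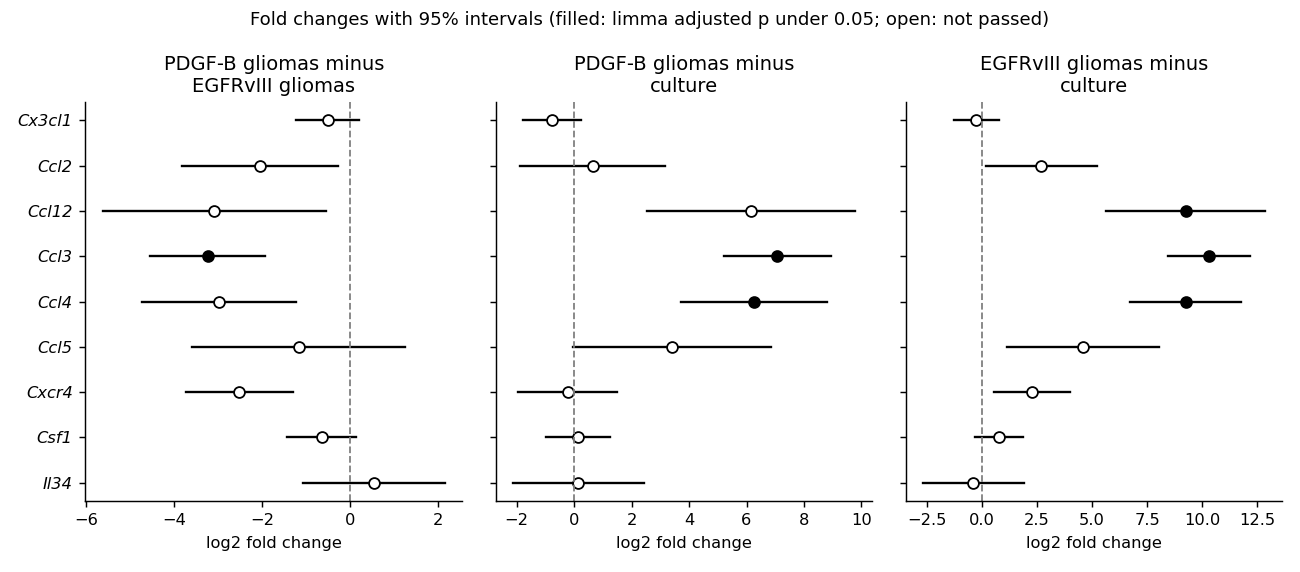
Log2 fold change of each gene with its 95% interval for gliomas labelled PDGF-B over EGFRvIII, gliomas labelled PDGF-B over the culture and gliomas labelled EGFRvIII over the culture. Ccl3, Ccl4 and Ccl12 stand between 6.16 and 10.31 over the culture, while the intervals of Cx3cl1, Csf1 and Il34 cross 0 in all 3 comparisons.

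The gliomas also differed in the abundance of microglial transcripts, so each level was set beside the mean log2 CPM of the 20 markers in the same library. That mean was 4.27, 4.60 and 5.60 in gliomas labelled PDGF-B, 7.33, 8.70 and 7.66 in gliomas labelled EGFRvIII and -2.01 in the culture, a range of 4.43 over the gliomas. Relative to the markers, the range over the 6 gliomas narrowed for 6 of 9 genes, against 7.19% of all genes: from 4.98 to 2.03 log2 units for Ccl3, 5.13 to 2.03 for Ccl4, 6.996 to 2.64 for Ccl12, 4.70 to 2.08 for Ccl2, 3.80 to 1.78 for Cxcr4 and 4.68 to 3.59 for Ccl5. In these 6 the glioma groups overlapped relative to the markers, and Ccl5 had overlapped in CPM as well. Relative to the marker mean, Ccl3 stood at -1.28 ± 1.02 log2 units (SD, n = 3) in gliomas labelled PDGF-B and -1.12 ± 0.31 in gliomas labelled EGFRvIII. Ccl4 stood at -2.68 ± 1.03 in gliomas labelled PDGF-B and -2.77 ± 0.88 in gliomas labelled EGFRvIII, and Ccl12 at -2.78 ± 1.35 in gliomas labelled PDGF-B and -2.77 ± 1.25 in gliomas labelled EGFRvIII. The means were higher in gliomas labelled PDGF-B for Cxcr4 (-2.02 ± 0.74 against -2.58 ± 0.76), Ccl2 (-3.06 ± 0.49 against -4.09 ± 0.74) and Ccl5 (-4.94 ± 1.10 against -6.85 ± 1.11). For the remaining 3 the range widened, from 1.40 to 3.20 for Csf1, 1.34 to 4.07 for Cx3cl1 and 2.56 to 5.18 for Il34. Those 3 did not overlap and were higher relative to the markers in gliomas labelled PDGF-B; 92.1% of all genes did the same. None of the 9 was lower relative to the markers with no overlap, against 0.121% of all genes. The same measure narrowed the range of Csf1r from 4.59 to 0.65 and of Cx3cr1 from 3.91 to 1.19, while that of Cspg4, an oligodendrocyte precursor gene, was 1.13 in CPM and 5.30 relative to the markers. The part of the myeloid fraction in each result was not tested.

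**Figure D4:**
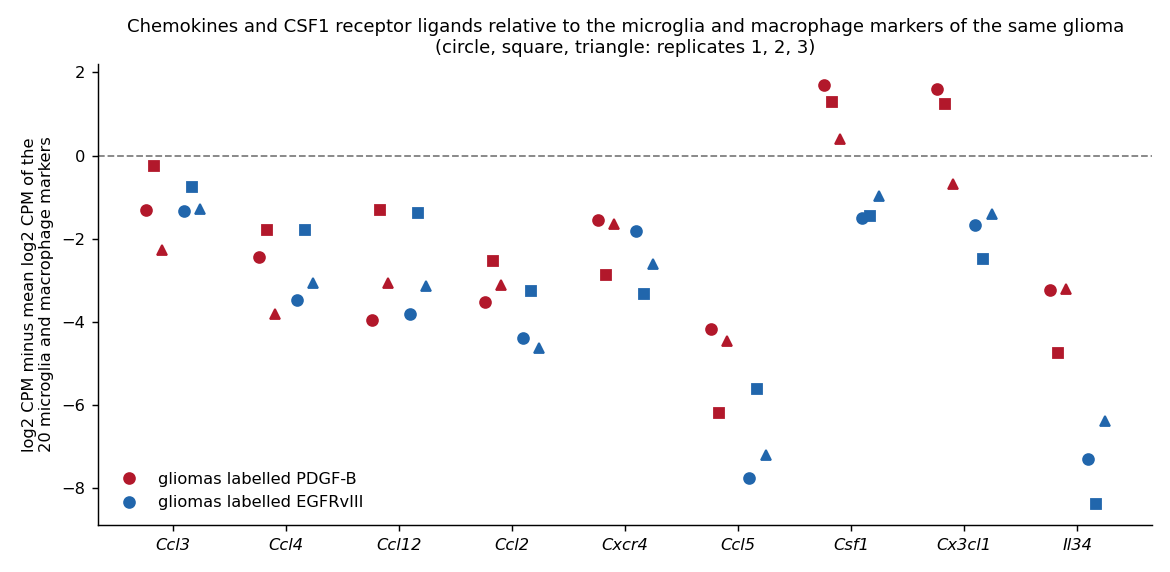
Log2 level of each gene relative to the mean of 20 microglia and macrophage markers in the same library, for gliomas labelled PDGF-B and gliomas labelled EGFRvIII, each point 1 glioma. Ccl3, Ccl4, Ccl12, Ccl2, Cxcr4 and Ccl5 overlap between the glioma groups, and Csf1, Cx3cl1 and Il34 do not.

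Among gliomas labelled EGFRvIII, Ccl3, Ccl4, Ccl12, Ccl2, Ccl5 and Csf1 had the same order of libraries as the marker mean, with replicate 2 highest and replicate 1 lowest. Cxcr4 was highest in replicate 1, and Cx3cl1 and Il34 were highest in replicate 3. Among gliomas labelled PDGF-B the order differed: the marker mean was highest in replicate 3, whereas Ccl3 (20.3 CPM), Ccl4 (6.92 CPM) and Ccl12 (9.73 CPM) were highest in PDGF-B replicate 2. Ccl2 (1.63, 4.09 and 5.55 CPM) kept the order of the marker mean there too. A list of 18 dissociation and immediate early genes, which tissue handling can raise, also had its highest mean among gliomas labelled PDGF-B in replicate 2, at 6.44 log2 CPM, against 5.50 in replicate 1 and 6.12 in replicate 3. It was 7.34, 7.57 and 6.91 in gliomas labelled EGFRvIII and 6.01 in the culture. Among gliomas labelled EGFRvIII it was thus lowest in replicate 3, whereas Ccl3, Ccl4 and Ccl12 were lowest in replicate 1. Of those 18 genes, 4 were lower in gliomas labelled PDGF-B than in those labelled EGFRvIII, against 2.63% of all genes. Among the 4 were Atf3 (-3.02 ± 0.39, limma adjusted p = 0.0245) and Btg2 (-2.40 ± 0.40, adjusted p = 0.0315). Against the culture 2 were higher and 1 lower in gliomas labelled PDGF-B, where 7.73% and 1.73% of all genes were. In gliomas labelled EGFRvIII 3 were higher, against 8.2% of all genes. The heat shock genes Hspa1a and Hspa1b were among those higher in both glioma groups. The part of handling in the Ccl levels was not tested.

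Markers of other cell types were summed in the same way. Border and infiltrating macrophage genes, 8 of 11 measured and led by Lyz2, summed to 55.8 to 687 CPM in gliomas labelled PDGF-B, 956 to 2792 CPM in gliomas labelled EGFRvIII and 2.27 CPM in the culture. Of these, 2 were lower in gliomas labelled PDGF-B than in those labelled EGFRvIII, against 2.63% of all genes. In that direction 5 of the 8 did not overlap, against 12.6% of all genes. Their median log2 fold change was -3.41, against -3.16 for the microglia and macrophage markers. In each glioma group 6 were higher than in the culture. The shares of all genes were 7.73% in gliomas labelled PDGF-B and 8.2% in gliomas labelled EGFRvIII. Of the T and NK cell list 1 of 11 was measured (Cd4, 0 to 0.53 CPM in gliomas labelled PDGF-B and 0.51 to 9.91 CPM in gliomas labelled EGFRvIII), and of the neutrophil list 1 of 8 (Mmp8, at most 1.58 CPM). Endothelial genes summed to 5.36 to 21.3 CPM in gliomas labelled PDGF-B, 19.5 to 35.4 CPM in gliomas labelled EGFRvIII and 31.8 CPM in the culture. Most of the culture's sum was Flt1, at 26.6 CPM, and 3 of the 9 measured were at 0 reads there. Flt1 had 1.19 to 14.2 CPM in gliomas labelled PDGF-B and 4.70 to 14.8 CPM in gliomas labelled EGFRvIII. Of 9 measured endothelial genes, none was called by limma between the glioma groups. An unadjusted p under 0.05 was found for 5 of the 9, against 2906 of all 17422 genes. No overlap, with gliomas labelled PDGF-B lower, was found for 5 of the 9, against 12.6% of all genes. The median log2 fold change of these endothelial genes was -1.504. Against the culture, 1 was higher in gliomas labelled PDGF-B and 4 in gliomas labelled EGFRvIII, where 7.73% and 8.2% of all genes were. Mural and fibroblast genes summed to 5.34 to 14.7 CPM in gliomas labelled PDGF-B, 7.65 to 18.2 CPM in gliomas labelled EGFRvIII and 15.9 CPM in the culture. Most of the culture's sum was Acta2, at 12.8 CPM. Acta2 had 0.12 to 1.53 CPM in gliomas labelled PDGF-B and 0.52 to 1.25 CPM in gliomas labelled EGFRvIII. Oligodendrocyte precursor genes summed to 5221 to 9192 CPM in gliomas labelled PDGF-B, 3670 to 4563 CPM in gliomas labelled EGFRvIII and 1962 CPM in the culture. Neural stem and progenitor genes summed to 870.4 to 2337 CPM in gliomas labelled PDGF-B, 1614 to 2455 CPM in gliomas labelled EGFRvIII and 7659 CPM in the culture. Neuron genes summed to 101 to 210.1 CPM in gliomas labelled PDGF-B, 58.0 to 124 CPM in gliomas labelled EGFRvIII and 40.2 CPM in the culture. Gad1 was the most abundant of them, and the median log2 fold change of the list between the glioma groups was -0.26. Astrocyte genes summed to 1680.4 to 1975 CPM in gliomas labelled PDGF-B, 1233 to 1402 CPM in gliomas labelled EGFRvIII and 1401 CPM in the culture. Slc1a2 was the most abundant, with 656 to 1619 CPM in gliomas labelled PDGF-B and 611 to 834 CPM in gliomas labelled EGFRvIII, and the median log2 fold change of the list between the glioma groups was -0.33. The part of these other cell types in the results was not tested.

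Per kilobase of exon, the order of the 9 genes differed between the groups. In gliomas labelled PDGF-B, Ccl3 (mean 16.5 CPM per kb), Cx3cl1 (12.3), Csf1 (11.7) and Ccl12 (10.3) led, with ranges that overlapped one another. In gliomas labelled EGFRvIII, Ccl3 (171 CPM per kb), Ccl12 (121) and Ccl4 (80.4) led with overlapping ranges, and Cxcr4 (22.2), Csf1 (19.6), Ccl2 (17.4) and Cx3cl1 (17.1) followed. Ccl5 (3.63 CPM per kb) and Il34 (0.778) were the lowest there. In the culture Cx3cl1 led at 20.03 CPM per kb, followed by Csf1 at 10.6 and Cxcr4 at 4.49. Neighbours in the order had overlapping ranges throughout both glioma groups, except Cx3cl1 and Ccl5 in gliomas labelled EGFRvIII.

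Genes with the most similar profile over the 7 libraries were found by the root mean square difference of log2 levels, each gene centred on its own mean. Ccl3 was closest to Tnf (0.42) and Osm (0.45), both inflammatory cytokines, and Ccl4 to Osm (0.46) and Tnf (0.47), against spreads of their own of 3.45 and 3.17. Tnf had 2.53, 13.3 and 4.87 CPM in gliomas labelled PDGF-B, 22.0, 97.6 and 26.3 CPM in gliomas labelled EGFRvIII, and 0 in the culture, the same ranking of libraries as Ccl3. Ccl12 was closest to Hcar2 (0.26), a receptor of hydroxycarboxylic acids, and Osm (0.51). Ccl5 was closest to B2m (0.46), the invariant chain of MHC class I, and Gm8909 (0.50). The genes found for Csf1 were Slc35g2 (0.15) and Yif1b (0.17), for Cx3cl1 C8g (0.21) and Ccdc189 (0.23), for Ccl2 Smim3 (0.23) and Pla2g4a (0.36), for Cxcr4 Arrdc1 and Coro2a (0.31 each) and for Il34 Tmem200a (0.36) and Pcolce (0.39). These differences stand against smaller spreads of their own: 0.51 for Csf1, 0.45 for Cx3cl1, 1.43 for Ccl2, 1.36 for Cxcr4 and 0.81 for Il34. The spread was 3.33 for Ccl12 and 1.93 for Ccl5. 

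Of 30 other chemokines, 17 were measured. Of them 2, Cxcl16 and Cxcl2, were lower in gliomas labelled PDGF-B than in those labelled EGFRvIII, against 2.63% of all genes. Cxcl16, a membrane-bound ligand of Cxcr6, had 4.14, 7.33 and 23.5 CPM in gliomas labelled PDGF-B, 80.9, 117 and 52.3 CPM in gliomas labelled EGFRvIII, and 0.38 CPM in the culture (log2 fold change -3.14 ± 0.62 between the glioma groups, limma adjusted p = 0.0431). Cxcl2, a neutrophil attractant, had a log2 fold change of -2.92 ± 0.58 (adjusted p = 0.0441). Against the culture 3 of the 17 were higher in gliomas labelled PDGF-B and 8 in gliomas labelled EGFRvIII. The shares of all genes were 7.73% and 8.2%. Of 21 other chemokine receptors, 9 were measured. Of them 3 were lower in gliomas labelled PDGF-B than in those labelled EGFRvIII, against 2.63% of all genes. Among the 3 were Cx3cr1 and Ccrl2 (-2.88 ± 0.56, limma adjusted p = 0.0421). Against the culture 5 of the 9 receptors were higher in gliomas labelled PDGF-B and 6 in gliomas labelled EGFRvIII, beside the same shares of all genes. Ccr2, the receptor of Ccl2 and Ccl12, had 0, 0.12 and 0.59 CPM in gliomas labelled PDGF-B, 1.58, 5.28 and 1.64 CPM in gliomas labelled EGFRvIII, and 0 reads in the culture. The glioma groups did not overlap in Ccr2 (log2 fold change -3.70 ± 0.94, adjusted p = 0.0898), and Ccr2 was higher than in the culture in gliomas labelled EGFRvIII (5.41 ± 1.34, adjusted p = 0.0479).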

How the data were processed

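RNA was sequenced from 7 libraries on the BGISEQ-500, per the labels' protocols; whether poly(A) selection or ribosomal depletion was used is not given there. Alignment with STAR and the mm10 build are given by the submitters' processing notes. The deposited values are log2 CPM, per the file headers of 6 files; the other header names no unit. The lowest deposited value is -4.12 log2 CPM. Low values were multiples of 0.01 read after a prior of 2. Of all values above 0 reads, 36.1% to 38.4% were whole reads (tolerance 0.02). CPM without the prior was recovered in this way, and printed CPM are these. Deposited log2 values were tested as deposited with limma 3.58.1 (trend and robust moderation) in R 4.3.3, 4 residual degrees of freedom, and Benjamini-Hochberg adjustment over 17422 genes at 0.05; fold changes understate low genes. The fit was tested on simulated data. The design had assumed unlogged values. The series describes its tumours as independent. Symbols and coordinates came from GENCODE M21, matching 17247 identifiers. The genes and lists were chosen with earlier results of these data known. Other genes named are those with the lowest adjusted p of each list, the ligands' receptors and the most similar profiles; Adam10, Ptprz1, Ccr2, Cspg4 and the markers detected in the culture were named after their values were seen. Some genes that this rule covers are not reported here. Alternatives changed scaling, prior count, filter, weights, replicate block and libraries.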

Additional observations from a re-analysis of the deposited data

How the results depend on the processing

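Between gliomas labelled PDGF-B and EGFRvIII 583 genes were called: 4 to 1282 when 1 library was left out (4 without PDGF-B replicate 1 and 7 without replicate 2, 21, 15 and 7 without EGFRvIII replicates 1 to 3, 1282 without PDGF-B replicate 3), 18 with the replicate number as a block, and 1376 without PDGF-B replicate 3 and EGFRvIII replicate 2, an alternative chosen after seeing the data. Of the 9 genes, 1 was called: 0 to 2 when 1 library was left out, 2 with a prior count of 5, and 2 with voom weights, where Cxcr4 was added (adjusted p = 0.0470 and 0.0395). Replicate numbers did not pair the samples: same-numbered deviations correlated at 0.17, -0.04 and -0.08, and 2 of 3 PDGF-B libraries correlated best with another number; with the replicate block 1 gene of the 9 was called. Against the culture, gliomas labelled PDGF-B gave 1647 genes (854 to 2303 with 1 library left out; 553 with voom, 62.6% of them higher against 81.7%; 4767 without both libraries) and 2 of the 9 genes (0 with voom). Gliomas labelled EGFRvIII gave 1663 genes (1058 to 2030 with 1 library left out; 721 with voom, 69.1% higher against 85.9%; 3298 without both libraries) and 3 of the 9 genes (0 with voom).

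Il34 ran from -0.11 to 1.17 between the glioma groups and from -0.50 to 0.77 in gliomas labelled PDGF-B against the culture with 1 library left out, and was -0.22 and -0.50 without both libraries. Cxcr4 in gliomas labelled PDGF-B against the culture ran from -0.81 to 0.31. Between the glioma groups, with 1 library left out, Ccl3 ran from -3.64 to -2.66, Ccl12 from -3.88 to -1.99, Ccl4 from -3.61 to -2.09, Ccl2 from -2.48 to -1.23, Ccl5 from -1.90 to -0.14, Cxcr4 from -3.09 to -1.98, Csf1 from -1.01 to -0.31 and Cx3cl1 from -0.70 to -0.20. Ccl12 in gliomas labelled PDGF-B against the culture passed in 6 alternatives, with adjusted p of 0.0203 to 0.0489. The cause of these changes was not tested. Scaling by library totals moved the median of all genes by 0.12 log2 units in gliomas labelled PDGF-B against the culture.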

Other observations

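The values of 3 related genes, named after they were seen, are given here. Ccl22, a macrophage and dendritic cell chemokine, had 3.44, 4.58 and 2.69 CPM in gliomas labelled PDGF-B, 1.98, 0.75 and 2.24 CPM in gliomas labelled EGFRvIII, and 1 read in the culture. It was higher than in the culture in both glioma groups (log2 fold change 5.35 ± 0.72, limma adjusted p = 0.00617, in gliomas labelled PDGF-B and 4.17 ± 0.72, adjusted p = 0.0123, in gliomas labelled EGFRvIII), and between the glioma groups its log2 fold change was 1.19 ± 0.49 (adjusted p = 0.286). Ackr3, the atypical receptor that binds the Cxcr4 ligand, had 29.8, 42.6 and 19.0 CPM in gliomas labelled PDGF-B, 24.3, 17.9 and 10.3 CPM in gliomas labelled EGFRvIII, and 5.76 CPM in the culture. Ackr3 was higher than in the culture in gliomas labelled PDGF-B (2.32 ± 0.57, adjusted p = 0.0480) and the glioma groups overlapped (0.81 ± 0.40, adjusted p = 0.362). Cxcl1, a neutrophil attractant, was highest in the culture, at 15.5 CPM, against 0.26 to 2.49 CPM in gliomas labelled PDGF-B and 2.10 to 6.43 CPM in gliomas labelled EGFRvIII; neither difference passed (adjusted p = 0.108 and 0.325).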
